A study of Mus musculus with 23 samples.

Results

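Wild-type (WT) mouse lung at 10 months of age was compared with WT mouse lung at embryonic day 19.5 (E19.5), across all genes of the deposited table of read counts. The comparison holds 6 of the 23 libraries of the series, 3 at 10 months and 3 at E19.5, taken by their age and genotype labels. Earlier results of these data were known when the comparison was chosen. All 6 lungs were C57BL/6, untreated, free of tumour and from mice kept in a pathogen-free barrier facility. The 10-month mice were labelled male. The embryos carry no label of sex, and no library carries a time of day or a sequencing batch. The series sequenced total RNA of whole lung pieces from WT mice and from mice lacking Rarres1 (knockout, KO), a gene named for its response to retinoic acid. It covers E19.5, 10 months and 18 months, with tumours of the oldest KO mice, and the age comparison within WT gives what changes in lung over that span when the gene is intact. The titles number the 3 libraries of a group as separate embryos or separate males, and say nothing of litters or of how each library was prepared. Each p-value is set against the spread among these libraries, which may be technical in part.

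At E19.5 the mouse lung is in its saccular stage, shortly before birth. Its airways are filled with fluid that the epithelium secretes, surfactant is being made, and the walls between the air sacs are thick and rich in dividing mesenchyme. After birth the fluid is absorbed, elastin-rich septa divide the sacs into alveoli, capillaries spread over flat type 1 cells, and the tissue is populated by resident macrophages and lymphocytes. The adult airway also takes on enzymes that break down inhaled and circulating chemicals. In whole tissue a lower level of a gene can mean fewer cells of a type or less RNA per cell, and these cannot be told apart here.

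Rounded totals lay between 28076361 and 30212556 counts in the 10-month libraries and between 23911050 and 28364731 in the E19.5 libraries. Levels below are counts per 1000000 counts (CPM) after scaling for composition, in the order of replicates 1, 2 and 3. Markers of lung lineages were present at both ages. Surfactant protein C had 11582, 13465 and 10051 CPM at 10 months, against 13502, 10499 and 11667 CPM at E19.5. Several libraries stood apart from the others of their group, and what rests on them is given with and without them below.

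The library WT 10 months 3 held more of the fetal RNAs than the other adult lungs. Over the 58 called genes that were at least 16-fold lower at 10 months and had at least 10 CPM at E19.5, its median level was 3.54% of the E19.5 mean, against 1.55% in WT 10 months 1 and 1.22% in WT 10 months 2. In the 13 other adult lungs without tumour in the series, the same median lay between 0.759% and 1.55%. WT 10 months 3 was the highest of the 3 adult libraries for 56 of the 58 genes. Its excess over the mean of replicates 1 and 2 had a median of 2.07% of the E19.5 mean, with quartiles of 1.61% and 2.54%. Xist, the RNA that coats the inactive X chromosome of females, had 0.342, 0.582 and 5.93 CPM in the 10-month libraries, highest in the same one. The part of this excess in any result was not tested, but the falls given as fitted fold changes are also given without that library where leaving it out moves the fold by over 1.5 times. Falls that rest on 3 or fewer pooled adult reads are given as ratios of pooled reads instead.

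**Figure D1:**
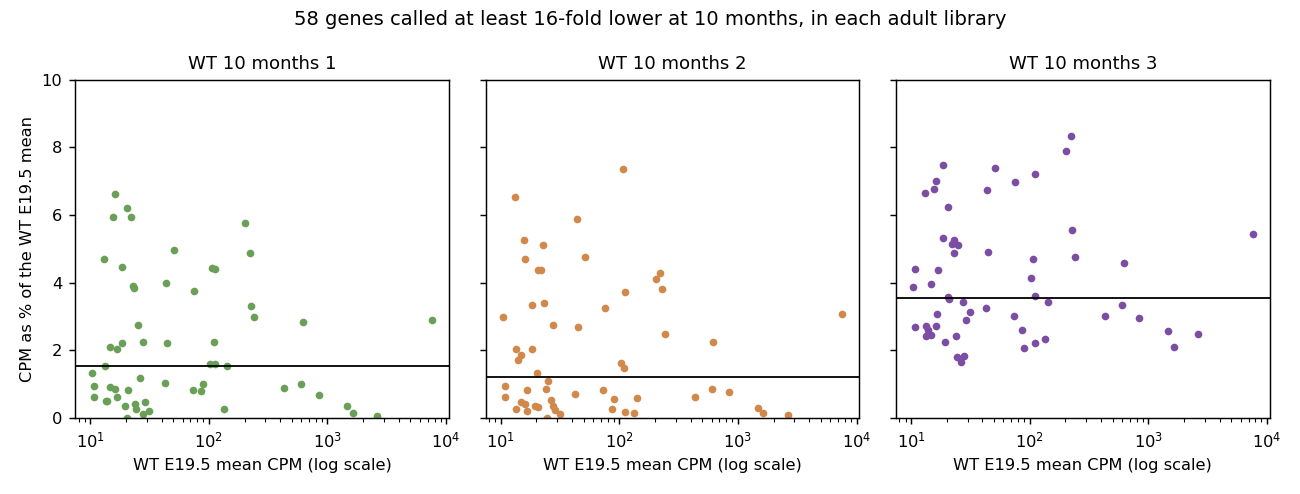
Level of the 58 genes at least 16-fold lower at 10 months in each WT 10-month library, as a percentage of their E19.5 mean (vertical axis), against that mean in CPM (horizontal log axis); each point is a gene and the line is the median of the points in a panel. The median line of replicate 3 is the highest, and no gene lies near 0 in that panel, whereas many do in the panels of replicates 1 and 2.

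The library WT E19.5 3 differed from both other embryos in another way. It had 29 genes at 10 CPM or more and at least 10 times both other E19.5 libraries, where the other 5 libraries had between 0 and 4 such genes. Its Xist level was high and its Y-linked genes near 0, while the other embryos had the reverse: Xist stood at 0.421, 0.189 and 1289 CPM in the E19.5 libraries and Eif2s3y, a Y-linked gene, at 32.1, 27.3 and 0 CPM. Squamous keratins, muscle and fat genes were also high in it. Krt4, a keratin of stratified lining, stood at 0.913, 0.944 and 390 CPM and Myh8, a perinatal skeletal muscle myosin, at 3.37, 4.83 and 65.5 CPM in the E19.5 libraries. The basal and squamous list sums to 33.8, 28.9 and 30.6 CPM at 10 months, against 58.1, 80.2 and 1169 CPM at E19.5. Heart muscle genes, which in mice are also active in the muscle sleeves of pulmonary veins, summed to 1613, 137 and 741 CPM at 10 months, against 785, 1579 and 1643 CPM at E19.5, and were lowest in WT 10 months 2. Fat cell genes summed to 302, 60.6 and 65.5 CPM at 10 months, against 34.9, 30.0 and 217 CPM at E19.5, so WT 10 months 1 and WT E19.5 3 were the high libraries. Changes in muscle, squamous and fat genes are therefore given with the libraries that carry them.

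**Figure D2:**
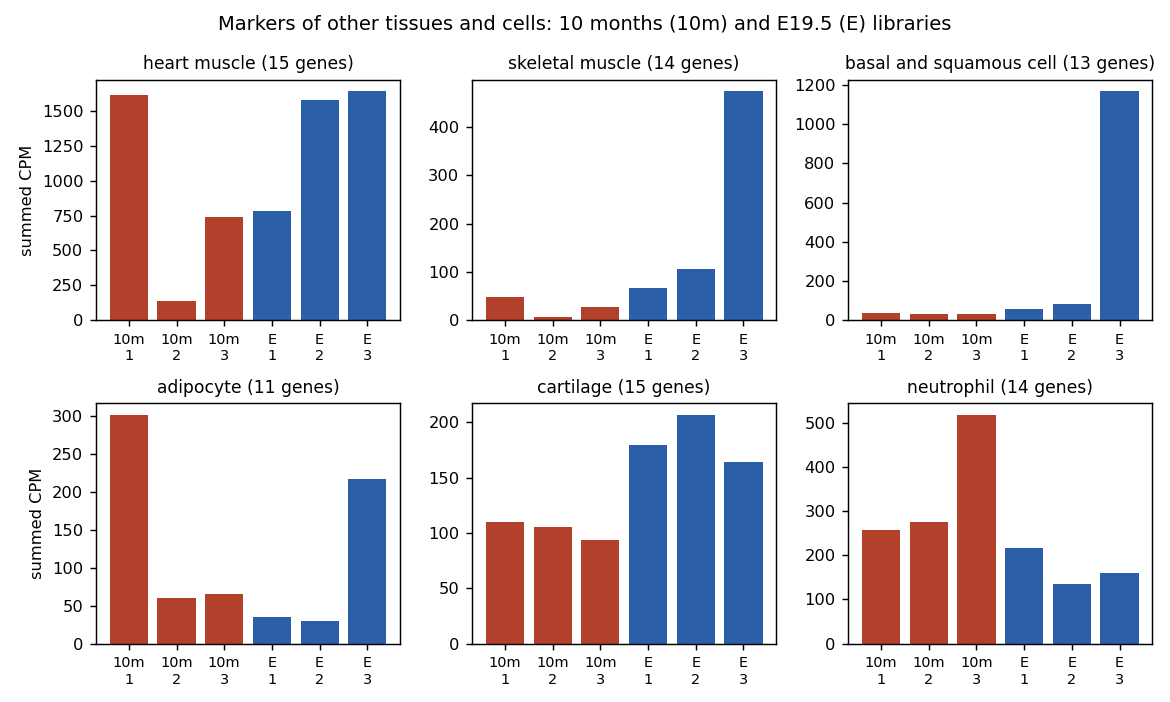
Summed CPM (vertical linear axes from 0) of 6 marker lists in each WT 10-month library (10m, left) and each WT E19.5 library (E, right), 1 bar per library. WT E19.5 3 is the highest of all 6 libraries for squamous and skeletal muscle genes, and heart muscle genes spread widely within the adult group.

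Of 24411 genes in the table, 15619 had enough counts to be tested, and 9799 of them, 62.7%, differed between the ages at an adjusted p under 0.05 (edgeR's quasi-likelihood test with Benjamini-Hochberg adjustment, the test behind every adjusted p below unless another is named). At 10 months 4927 genes were higher (31.5%) and 4872 were lower (31.2%). A 4-fold or larger rise was called in 713 genes (4.56%) and a 4-fold or larger fall in 725 (4.64%). The median log2 fold change of all tested genes was -0.00. The levels of 5436 genes (34.8%) in all 3 adult lungs were above those in all 3 fetal lungs, and 5411 genes (34.6%) were below. A count of list members called in one direction is to be read against these shares, since calls in either direction were common.

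**Figure D3:**
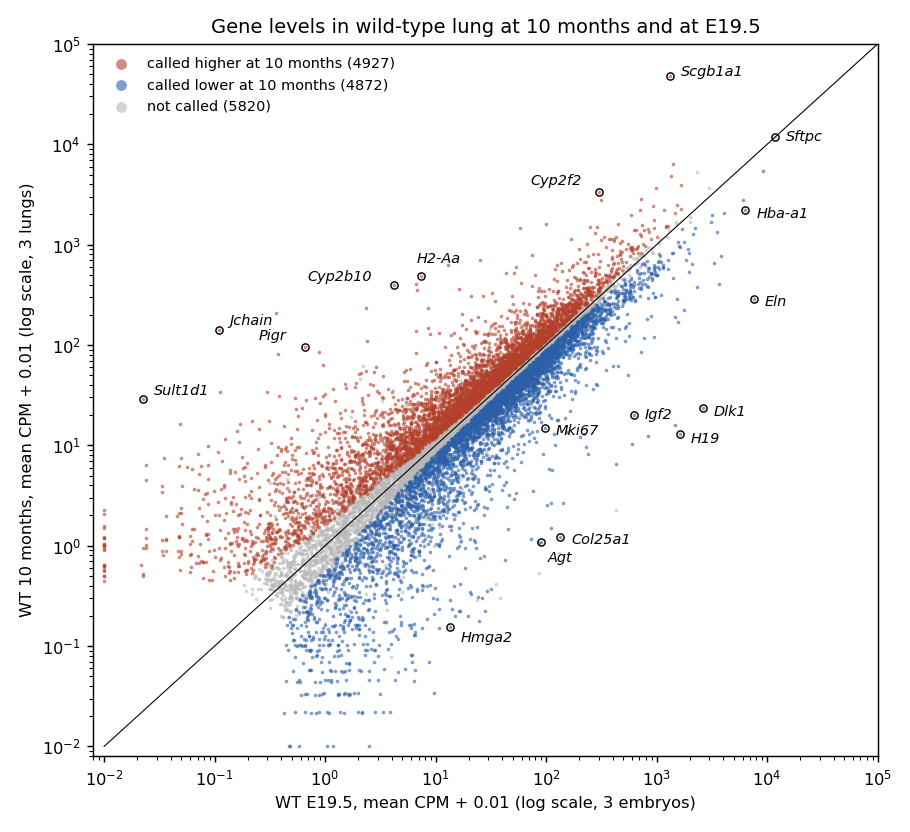
Mean level of each tested gene in WT lung at 10 months (vertical axis) against WT lung at E19.5 (horizontal axis), both in CPM + 0.01 on log axes; called genes are coloured by direction. Named genes far above the diagonal include Scgb1a1, Cyp2b10 and Jchain, and those far below it include Dlk1, H19 and Hmga2.

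The 12 largest rises were picked among genes with no overlap between the ages and an adult mean of 10 CPM or more. That all 3 adult lungs lay above the fetal lungs in these genes therefore follows from the choice. The levels of several were fairly even among the adult lungs. Jchain, which joins antibody units into polymers for secretion, had 159.6, 137 and 125 CPM at 10 months, against 0.14, 0.0755 and 0.0828 CPM at E19.5. Pigr, the receptor that carries those polymers across epithelium, had 94.7, 95.8 and 97.3 CPM at 10 months, against 0.737, 0.642 and 0.579 CPM at E19.5. Their log2 fold changes were 10.38 ± 0.19 (adjusted p = 2.61e-09) and 7.18 ± 0.10 (adjusted p = 4.14e-10). Cd209a, a lectin of dendritic cells, had 8.92, 14.2 and 11.3 CPM at 10 months, against 0.105, 0.113 and 0.124 CPM at E19.5. Spp1, the secreted phosphoprotein osteopontin, had 308, 204 and 190.4 CPM at 10 months, against 2.28, 2.91 and 1.78 CPM at E19.5. Cd209a and Spp1 had log2 fold changes of 6.60 ± 0.28 (adjusted p = 1.55e-07) and 6.65 ± 0.30 (adjusted p = 1.16e-05).

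Other large rises were uneven among the adult lungs. Bpifa1, a secreted defence protein of large airways, had 556, 15.8 and 52.8 CPM at 10 months, against 0.421, 0.377 and 0.248 CPM at E19.5. Its level in WT 10 months 1 was far above both others, and the log2 fold change of 9.18 ± 2.40 (adjusted p = 0.03) became 6.59 ± 0.78 (adjusted p = 0.00329) without that library. Without any single fetal library its adjusted p lay between 0.101 and 0.103, above the threshold. Cyp2a5, a cytochrome P450 of the airway and nose, had 150, 50.9 and 53.5 CPM at 10 months, against 0.316, 0.302 and 1.99 CPM at E19.5, again highest in WT 10 months 1, and its log2 fold change of 6.67 ± 0.98 (adjusted p = 0.00442) became 5.96 ± 0.75 (adjusted p = 0.00494) without it and 8.09 ± 1.24 (adjusted p = 0.012) without WT E19.5 3. Mmp3, a stromelysin that cuts many matrix proteins, had 23.1, 39.6 and 39.4 CPM at 10 months, against 0.105, 0.0377 and 0.166 CPM at E19.5. Its log2 fold change was 8.33 ± 0.40 (adjusted p = 3.39e-06).

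Some genes were close to silent at one age. Sult1d1, a sulfotransferase for small amines and phenols, had 2510 and 1 pooled reads at 10 months and at E19.5, a ratio of 2311 (95% interval 415 to 91330) after scaling. Prmt8, an arginine methyltransferase known from neurons, had 1388 and 3 pooled reads and a ratio of 426 (95% interval 146 to 2069). Slc26a4, the anion exchanger pendrin, had 342 and 2 pooled reads and a ratio of 158 (95% interval 43.3 to 1306). The wide upper ends of these intervals reflect that 3 or fewer reads were counted in the fetal lungs, and the intervals cover counting error only. Cd209f, Rprml, Serpina3m, Slc5a12 and Fabp1 were the other such genes with the highest adult levels, and their pooled ratios lay between 164 and 505.

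In the other direction, Kel, a blood group protein of red cell precursors, had 3 and 514 pooled reads at 10 months and at E19.5, so that its E19.5 level was 186 (95% interval 63.3 to 905) times its 10-month level. Acan, the aggregating proteoglycan of cartilage, had 1 and 214 pooled reads and was 232 (95% interval 41.3 to 9221) times higher at E19.5 on the same scale. Hba-x, the embryonic alpha-like globin, had 3 and 334 pooled reads, with an E19.5 level 121 (95% interval 41 to 589) times that at 10 months. These are genes of red cell precursors and of airway cartilage. Upk3bl, Dbh, Myog, Stfa2 and Fibcd1 completed the group, with ratios between 84.7 and 392. Upk3bl, Dbh and Myog were carried in part by WT E19.5 3: their E19.5 levels were 2.25, 1.66 and 25.4 CPM, 0.597, 0.453 and 10.4 CPM and 1.4, 0.717 and 7.78 CPM. Without WT E19.5 3 their log2 fold changes were -6.14 ± 0.67 (adjusted p = 4.32e-05), -5.04 ± 0.85 (adjusted p = 0.00072) and -6.05 ± 0.80 (adjusted p = 0.000149). Without WT 10 months 3 their adjusted p was 0.177, 0.199 and 0.0791, and without WT 10 months 2 it was 0.117, 0.147 and 0.0531. Without WT 10 months 1 it was 0.106 for Upk3bl and 0.127 for Dbh.

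By deposited FPKM (fragments per kilobase of gene per 1000000 fragments), which can be compared between genes, the 10 genes that gained most included Scgb1a1, Lyz2 and Fth1. Scgb1a1, the main secreted protein of club cells, had a mean of 177481 ± 16399 FPKM at 10 months and 5101 ± 731 FPKM at E19.5 (SD, n = 3 each). Lyz2, the lysozyme of macrophages and type 2 cells, had 7345 ± 1159.8 FPKM at 10 months and 1679 ± 439 FPKM at E19.5. Fth1, the ferritin heavy chain, had 3226 ± 164 FPKM at 10 months and 1290.2 ± 98.5 FPKM at E19.5. The 10 genes that lost most FPKM included Hba-a1, Eef1a1 and Eln. Hba-a1, an adult alpha globin, had 6035 ± 655 FPKM at 10 months and 18289.9 ± 4151 FPKM at E19.5. Eef1a1, the main translation elongation factor, had 3359.7 ± 142 FPKM at 10 months and 5865 ± 277 FPKM at E19.5. Eln, elastin, had 78.6 ± 29.4 FPKM at 10 months and 2164 ± 139 FPKM at E19.5. Lyz1 and Lyz2, and the globin pairs Hba-a1 with Hba-a2 and Hbb-b2 with Hbb-bt, are near-identical copies between which reads may be split arbitrarily, and Hbb-b2 and Hbb-bt hold the same counts in the table.

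**Figure D4:**
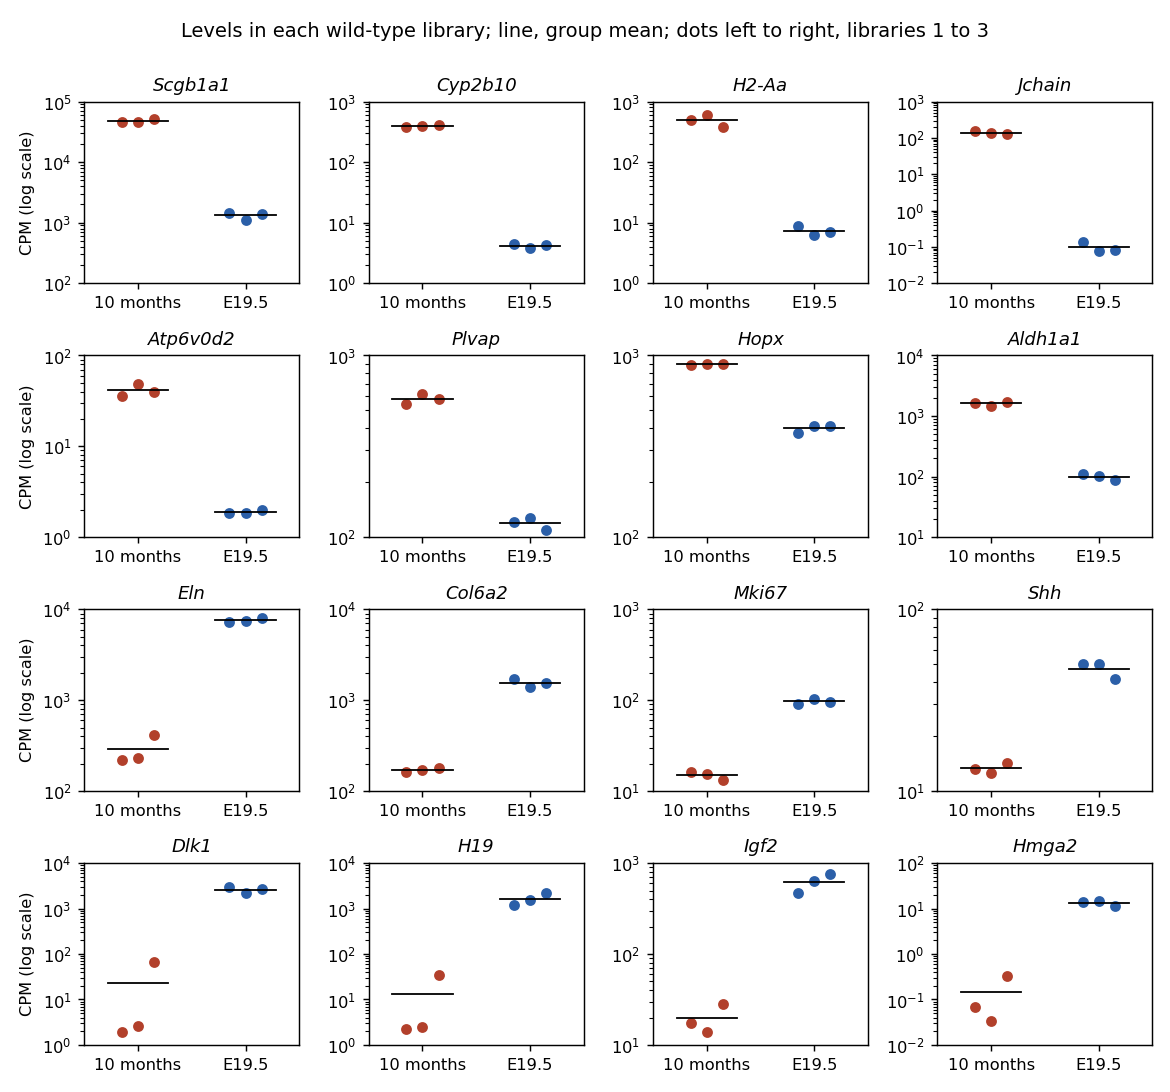
CPM on log axes of 16 genes in each WT 10-month library (left in each panel) and each WT E19.5 library (right). The groups do not overlap in any of these genes, and WT 10 months 3 lies above the other adult libraries for Dlk1, H19, Igf2 and Hmga2.

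Genes of cell division were lower at 10 months. All 31 mitosis genes tested were called lower, none higher, and 21 of them fell at least 4-fold, with a median log2 fold change of -2.35 against -0.00 over all genes. Mki67, the proliferation antigen Ki-67, had 16.1, 15.3 and 13.2 CPM at 10 months, against 91, 104 and 96.3 CPM at E19.5. Ube2c, the ubiquitin-conjugating enzyme that starts the exit from mitosis, had 3.38, 2.71 and 2.29 CPM at 10 months, against 22.1, 23.8 and 21.6 CPM at E19.5. Plk1, a kinase of spindle assembly, had 2.08, 1.99 and 1.56 CPM at 10 months, against 10.0, 13.9 and 13.4 CPM at E19.5. The adult values of all 3 genes lay well under the fetal ones, with log2 fold changes of -2.70 ± 0.09 (adjusted p = 6.37e-08), -3.00 ± 0.15 (adjusted p = 2.91e-07) and -2.72 ± 0.18 (adjusted p = 2.02e-06). Kif20a, a mitotic kinesin, and Bub1b, a spindle checkpoint kinase, also fell, with log2 fold changes of -2.49 and -1.86.

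DNA replication genes also fell, but by less. Of 30 tested, 24 were lower, 0 were higher and 6 did not pass, with a median log2 fold change of -0.68. Rrm2, the regulated subunit of ribonucleotide reductase, had 5.26, 4.08 and 4.4 CPM at 10 months, against 16.5, 25.1 and 15.8 CPM at E19.5. Cdt1, the licensing factor of replication origins, had 5.64, 6.06 and 4.29 CPM at 10 months, against 14.6, 15.3 and 15.2 CPM at E19.5. Neither gene had overlapping groups, and the log2 fold changes were -2.06 ± 0.20 (adjusted p = 3.32e-05) and -1.49 ± 0.14 (adjusted p = 1.38e-05). Pcna, the sliding clamp that also serves DNA repair, had 65.6, 65.1 and 68 CPM at 10 months, against 61.6, 67.2 and 54.8 CPM at E19.5. Its groups overlapped and its log2 fold change of 0.11 ± 0.08 did not pass (adjusted p = 0.247). E2f2, a transcription factor of S phase genes, Tk1, thymidine kinase, and Lig1, DNA ligase 1, fell with log2 fold changes of -0.95, -1.94 and -1.01.

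Promoters are shown here because the mitosis genes fell together and because their promoters are known for paired CCAAT boxes and the cell cycle homology region (CHR), which bind the NF-Y factor and the DREAM and MuvB complexes. Sequences are RefSeq (GRCm38.p6), the 150 bases before the annotated start, 5′ to 3′ on the strand of the gene, and capitals mark CCAAT or its reverse complement ATTGG and TTTGAA or its reverse complement TTCAAA. Cdk1, the mitotic cyclin-dependent kinase, and Cdc20, which activates the anaphase complex, were chosen for display after their values and motifs were seen.
Cdk1 (chr10:69352913-69353062, minus strand): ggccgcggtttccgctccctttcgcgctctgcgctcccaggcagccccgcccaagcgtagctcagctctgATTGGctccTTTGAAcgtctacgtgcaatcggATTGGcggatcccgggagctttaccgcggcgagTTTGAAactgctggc
Ube2c (chr2:164769779-164769928, plus strand): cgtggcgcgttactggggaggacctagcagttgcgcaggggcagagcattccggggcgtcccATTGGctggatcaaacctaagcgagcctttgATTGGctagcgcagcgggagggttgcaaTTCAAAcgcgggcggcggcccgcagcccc
Cdc20 (chr4:118437344-118437493, minus strand): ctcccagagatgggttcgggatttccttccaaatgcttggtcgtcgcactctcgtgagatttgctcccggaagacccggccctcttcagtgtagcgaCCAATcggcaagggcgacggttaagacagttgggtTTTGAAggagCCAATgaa
CCAAT on either strand was found in 21 of the 26 mitosis genes with a promoter sequence (80.8%), in 12 of 25 replication genes (48%), in 27.7% of the 27025 genes with a sequence in the table, and in 30.6% of the 11749 of them that were tested. TTTGAA on either strand was found in 9 of 26 mitosis genes (34.6%), 3 of 25 replication genes (12%), 10.5% of all and 6.75% of those tested. These are matches of letters in a window and say nothing of whether a factor binds there. Cdk1 and Cdc20 had log2 fold changes of -2.96 and -2.08, with no overlap between ages.

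Brakes on the cell cycle did not move as a group: of 12 inhibitors tested 5 rose, 4 fell and 3 did not pass. Of all tested genes 31.5% rose and 31.2% fell. The largest change in the list was the rise of Cdkn2a, named after its values were seen, with a log2 fold change of 4.75. Cdkn1c, the imprinted inhibitor p57, had 37.1, 32.3 and 38.8 CPM at 10 months, against 250.1, 259 and 286 CPM at E19.5, a log2 fold change of -2.88 ± 0.09 (adjusted p = 4.23e-08). Cdkn1a, the inhibitor p21 that p53 induces, had 102, 85.5 and 87.9 CPM at 10 months, against 63.2, 54.2 and 66.5 CPM at E19.5, a log2 fold change of 0.58 ± 0.10 (adjusted p = 0.000563) that did not pass in a fit of all 23 libraries (adjusted p = 0.0765). The first was lower and the second higher in every adult lung than in any fetal lung. Rb1 and Rbl2, pocket proteins that restrain E2F factors, rose with log2 fold changes of 0.72 and 0.45. Among DNA methylation and Polycomb genes, 9 of 13 fell and 2 rose. Dnmt3a, a de novo DNA methyltransferase, had 55.9, 58 and 53.4 CPM at 10 months, against 192, 175 and 208 CPM at E19.5. Ezh2, the histone H3 lysine methyltransferase of Polycomb, had 6.56, 6.58 and 7.89 CPM at 10 months, against 23.6, 26.7 and 19.6 CPM at E19.5. Both were lower at 10 months without overlap, with log2 fold changes of -1.78 ± 0.08 and -1.73 ± 0.14. Cbx7, a reader of the Polycomb mark, was higher, with a log2 fold change of 2.63 ± 0.09 (adjusted p = 6.37e-08).

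Imprinted genes, expressed from the copy of a single parent, gave some of the largest falls. Of 24 tested, 21 fell, 2 rose and 1 did not pass, with a median log2 fold change of -2.72, and 15 fell at least 4-fold. The 2 that rose are Sgce and Dcn, named after their values were seen, with log2 fold changes of 0.47 ± 0.08 (adjusted p = 0.000578) and 1.08 ± 0.35 (adjusted p = 0.0491). The call of Dcn was lost without any single library but WT E19.5 3, at an adjusted p between 0.0646 and 0.138. Igf2 (chromosome 7, 142650768 to 142666816 in GRCm38), the fetal insulin-like growth factor, had 17.5, 13.9 and 28.3 CPM at 10 months, against 472, 631 and 761 CPM at E19.5. Cdkn1c, above, Grb10, an adaptor that dampens insulin receptors, and Igf2r, the receptor that clears Igf2, were even within both groups. Grb10 had 60.8, 56.4 and 68.7 CPM at 10 months, against 440.2, 481 and 432 CPM at E19.5. Igf2r had 101, 114 and 116 CPM at 10 months, against 496, 477 and 566 CPM at E19.5. In each of these the adult and fetal values were far apart, and the log2 fold changes were -4.96 ± 0.38 (adjusted p = 0.000234), -2.86 ± 0.09 (adjusted p = 4.23e-08) and -2.22 ± 0.09 (adjusted p = 1.26e-07).

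The noncoding RNAs and Dlk1 of the imprinted clusters on chromosomes 7 and 12 were far lower in every adult lung. Dlk1 (chromosome 12, 109452485 to 109463336), a membrane protein of precursor cells related to Notch ligands, had 1.92, 2.57 and 65.4 CPM at 10 months, against 2932, 2238 and 2737 CPM at E19.5. H19 (chromosome 7, 142575530 to 142578146), a noncoding RNA beside Igf2, had 2.26, 2.43 and 34 CPM at 10 months, against 1176, 1572 and 2163 CPM at E19.5. Meg3, the noncoding RNA beside Dlk1, had 5.3, 4.55 and 37.5 CPM at 10 months, against 1625, 1002 and 1770 CPM at E19.5. WT 10 months 3 was above both other adult lungs in all 3 genes, and far below every fetal lung. The log2 fold changes were -6.83 ± 1.84 (adjusted p = 0.0323) for Dlk1, -7.00 ± 1.5 (adjusted p = 0.0162) for H19 and -6.54 ± 1.20 (adjusted p = 0.00964) for Meg3. Without WT 10 months 3 they were -10.19 ± 0.23 (adjusted p = 6.96e-07), -9.44 ± 0.43 (adjusted p = 7.07e-05) and -8.21 ± 0.40 (adjusted p = 8.63e-05). With that library kept and any other single library left out, the adjusted p of Dlk1 lay between 0.0621 and 0.0798. Mirg, a microRNA host RNA of the same cluster, had 0.0342, 0.103 and 0.509 CPM at 10 months, against 29.6, 20.3 and 33.6 CPM at E19.5, with log2 fold changes of -7.02 ± 0.58 with all libraries and -8.57 ± 0.44 (adjusted p = 2.43e-05) without that library.

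Oncofetal regulators followed the same direction: 7 of 8 tested fell and 1 rose. Hmga2, an architectural DNA-binding protein of embryonic cells, had 0.0684, 0.0343 and 0.327 CPM at 10 months, against 13.8, 15.1 and 11.6 CPM at E19.5. Its log2 fold change of -6.54 ± 0.44 (adjusted p = 8.38e-06) became -7.91 ± 0.31 (adjusted p = 2.58e-06) without WT 10 months 3. Igf2bp3, an RNA-binding protein that stabilises Igf2 and other messages, had 0.991, 1.2 and 2.18 CPM at 10 months, against 45, 45.9 and 43.5 CPM at E19.5, a log2 fold change of -4.95 ± 0.24 (adjusted p = 2.23e-06). Its relatives Igf2bp1 and Igf2bp2 had log2 fold changes of -3.29 and -2.39. In the insulin-like growth factor axis, Igf2 and Igf2r included, 4 of 13 rose and 7 fell. Igf1, the postnatal factor, had 11.5, 12.3 and 14.6 CPM at 10 months, against 52.5, 73 and 61.2 CPM at E19.5. Igfbp2, a binding protein that marks mature type 1 cells, had 234, 339 and 341 CPM at 10 months, against 19.6, 26.8 and 34.2 CPM at E19.5. Igf1 was lower and Igfbp2 higher in every adult lung, with log2 fold changes of -2.28 ± 0.14 (adjusted p = 2.31e-06) and 3.51 ± 0.27 (adjusted p = 0.000133). Igfbp7, a binding protein made by endothelium, had 542, 512 and 454 CPM at 10 months, against 239, 229.8 and 227 CPM at E19.5, a log2 fold change of 1.11 ± 0.08 (adjusted p = 2.49e-06).

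Hormone receptors and precursors of the fetal lung were also among the largest falls. Agt, the angiotensin precursor, had 0.889, 0.514 and 1.85 CPM at 10 months, against 96.4, 78.6 and 94.7 CPM at E19.5. Agtr2, the angiotensin receptor of fetal mesenchyme, had 0.0684, 0.0343 and 0.982 CPM at 10 months, against 20.5, 28.3 and 45.6 CPM at E19.5. Again WT 10 months 3 was the highest adult library, and the log2 fold changes of -6.38 ± 0.37 (adjusted p = 3.99e-05) and -6.46 ± 0.92 (adjusted p = 0.00338) became -6.99 ± 0.22 (adjusted p = 2.38e-06) and -9.13 ± 0.74 (adjusted p = 0.0005) without it. Gipr, the receptor of an incretin hormone, had 0.0684, 0.0685 and 0.436 CPM at 10 months, against 18.9, 18.6 and 21.1 CPM at E19.5, with log2 fold changes of -6.67 ± 0.43 and, without that library, -8.06 ± 0.21 (adjusted p = 6.78e-07).

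Extracellular matrix genes were lower. Of 28 collagen chains 23 fell, 2 rose and 3 did not pass, with a median log2 fold change of -2.36. Col6a2, a chain of the beaded filament collagen, had 161, 171 and 179 CPM at 10 months, against 1732, 1386 and 1554 CPM at E19.5. Col1a1, the main fibrillar collagen chain, named after its values were seen, had 197, 179.7 and 197 CPM at 10 months, against 1231, 1181 and 1966 CPM at E19.5. Col18a1, a basement membrane collagen that is cut to endostatin, had 73.4, 66.7 and 71.7 CPM at 10 months, against 249.7, 241 and 251 CPM at E19.5. None had overlapping groups, and the log2 fold changes were -3.19 ± 0.10 (adjusted p = 4.23e-08), -2.93 ± 0.22 (adjusted p = 4.56e-05) and -1.81 ± 0.06 (adjusted p = 7.36e-08). Col24a1, a rare fibrillar chain, had 0.205, 0.274 and 0.364 CPM at 10 months, against 13.6, 13.5 and 13.1 CPM at E19.5, a log2 fold change of -5.56 ± 0.20 (adjusted p = 6.94e-08). Col25a1, a membrane collagen, had 0.342, 0.205 and 3.13 CPM at 10 months, against 145, 125 and 133 CPM at E19.5, and its log2 fold change of -6.80 ± 0.83 became -8.91 ± 0.17 (adjusted p = 3.18e-07) without WT 10 months 3. The 2 chains that rose, Col4a3 of the alveolar basement membrane and Col8a1 of vessel walls, had log2 fold changes of 0.64 ± 0.11 and 1.47 ± 0.37, and were named after their values were seen. Of 21 enzymes and helpers of collagen processing 16 fell and 4 rose. P3h1, a prolyl hydroxylase, and Bmp1, the procollagen C-proteinase, had log2 fold changes of -1.12 and -1.5, whereas Pcolce2, an enhancer of that proteinase, rose with 291, 281 and 259 CPM at 10 months, against 39.8, 35.9 and 28.4 CPM at E19.5, a log2 fold change of 3.00 ± 0.12 (adjusted p = 2.48e-07).

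Elastic fibre genes fell in 13 of 19, with 1 higher and 5 that did not pass. Eln (chromosome 5, 134702595 to 134747368), the elastin core, had 218, 232 and 410.3 CPM at 10 months, against 7183, 7492 and 8105 CPM at E19.5, a log2 fold change of -4.73 ± 0.30 (adjusted p = 3.18e-05). Mfap4, a microfibril protein, had 857, 573 and 548 CPM at 10 months, against 3557, 3107 and 3253 CPM at E19.5, a log2 fold change of -2.33 ± 0.18 (adjusted p = 2.04e-05). Fbn1, the microfibril scaffold fibrillin 1, had 90.0, 100.4 and 92.1 CPM at 10 months, against 331, 353 and 397 CPM at E19.5, a log2 fold change of -1.94 ± 0.09 (adjusted p = 1.86e-07). Efemp1, a fibulin, was the member that rose, with 164, 195 and 168 CPM at 10 months, against 28.2, 27.7 and 27.7 CPM at E19.5 and a log2 fold change of 2.65 ± 0.08 (adjusted p = 4.23e-08). Between 1 and 3 members rose when a library was left out. Of 15 laminin and basement membrane genes 12 fell and 1 rose, among them Lamc1, a laminin chain, and the linker proteins Nid1 and Nid2, with log2 fold changes of -2.20, -1.79 and -3.18. Matrix proteases were mixed: of 16 metalloproteinases and inhibitors 5 rose and 5 fell, beside 31.5% and 31.2% of all tested genes. Mmp2 and Mmp14, a gelatinase and its membrane activator, had log2 fold changes of -1.66 ± 0.06 (adjusted p = 1.05e-07) and -2.05 ± 0.07 (adjusted p = 4.83e-08). Timp2, an inhibitor of both, had 753, 818 and 750.3 CPM at 10 months, against 222, 250.1 and 242 CPM at E19.5, a log2 fold change of 1.70 ± 0.07 (adjusted p = 1.82e-07). The groups did not overlap in any of these 3 genes.

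Cartilage genes had the lowest median of any list, -5.57 on the log2 scale: 10 of 11 fell and 1 rose. Col2a1, the main collagen of cartilage, had 0.0684, 0.103 and 0.255 CPM at 10 months, against 4.35, 10.6 and 7.57 CPM at E19.5. Col9a2, which decorates its fibrils, had 0.137, 0.0685 and 0.364 CPM at 10 months, against 14.1, 15.4 and 14.9 CPM at E19.5. Neither gene had overlapping groups, and the log2 fold changes of -5.70 ± 0.51 (adjusted p = 2.81e-05) and -6.28 ± 0.33 (adjusted p = 9e-07) became -6.38 ± 0.59 (adjusted p = 0.000171) and -7.11 ± 0.24 (adjusted p = 1.85e-06) without WT 10 months 3. Cytl1, a secreted protein first found in blood progenitors, was the member that rose, with 30.9, 23.2 and 23.4 CPM at 10 months, against 1.19, 2.6 and 2.73 CPM at E19.5 and a log2 fold change of 3.58 ± 0.30 (adjusted p = 6.01e-05). These genes mark the airway rings, which lie outside the alveolar region, and the amount of large airway in each piece is not labelled.

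**Figure D5:**
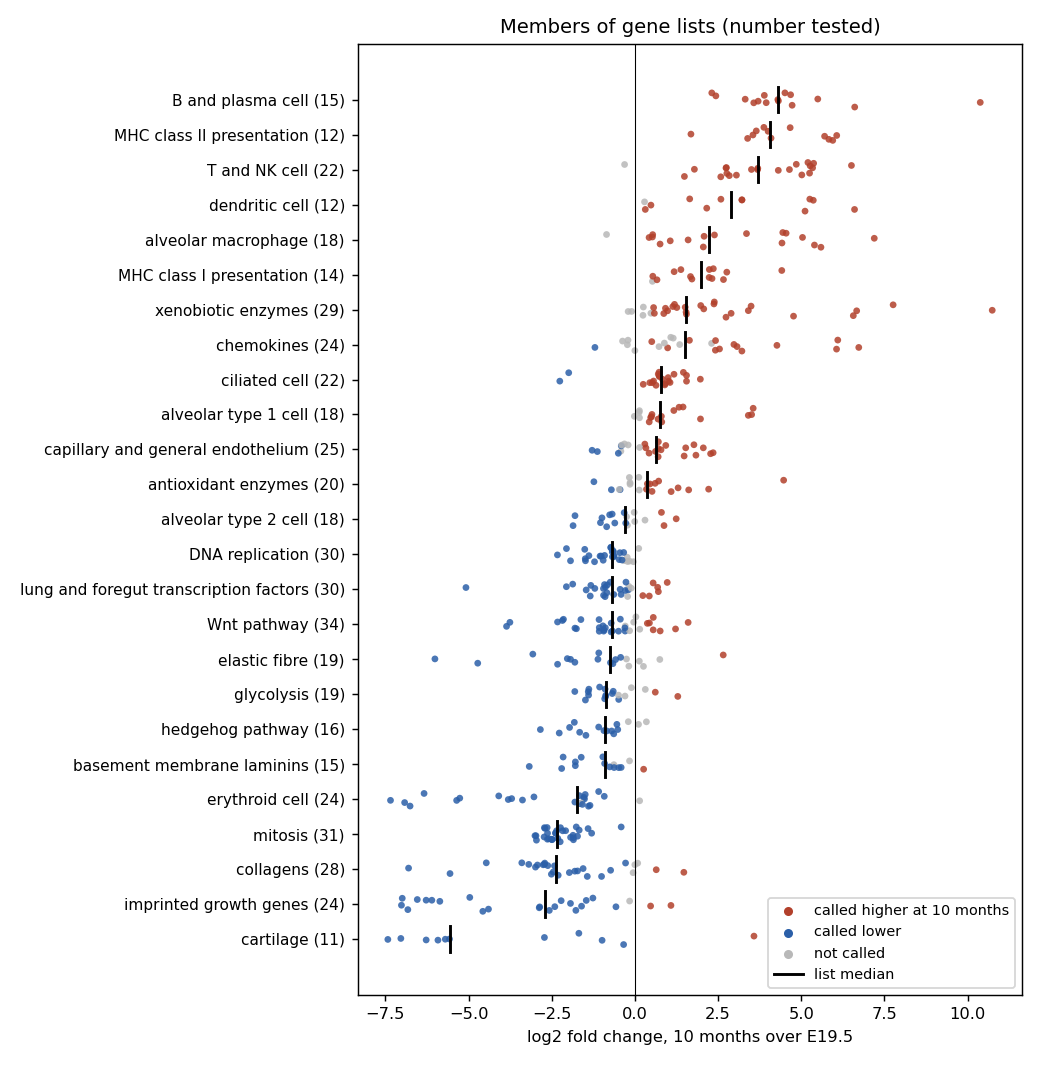
Log2 fold changes, WT 10 months over WT E19.5, of the tested members of 25 gene lists, ordered by list median; each point is a gene, coloured by its call, and each black bar is the list median. Antigen presentation and lymphocyte lists lie almost wholly to the right of 0, and mitosis, imprinted and collagen lists mostly to the left.

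Signals of branching and sacculation were lower. Of 16 hedgehog pathway genes 13 fell and 0 rose, with 3 that did not pass and a median of -0.89. Shh, the ligand of the airway epithelium, had 13.2, 12.6 and 14.2 CPM at 10 months, against 49.7, 50.3 and 41.3 CPM at E19.5. Gli1, a transcription factor that is itself a target of the pathway, had 6.02, 7.12 and 6.69 CPM at 10 months, against 27.5, 26.8 and 23.2 CPM at E19.5. Adult and fetal values were apart in both, with log2 fold changes of -1.82 ± 0.10 (adjusted p = 5.79e-07) and -1.97 ± 0.11 (adjusted p = 6.83e-07). Gli2, Gli3 and the co-receptor Boc had log2 fold changes of -2.28, -1.47 and -1.09. Of 34 Wnt pathway genes 22 fell, 7 rose and 5 did not pass. Wnt5a, a ligand of distal mesenchyme, had 14, 14.2 and 13.7 CPM at 10 months, against 52.3, 54.8 and 39.4 CPM at E19.5. Wnt7b, a ligand of the epithelium, had 6.29, 8.43 and 5.42 CPM at 10 months, against 29.1, 34.5 and 37.6 CPM at E19.5. Axin2, a common target of the pathway, had 35, 33 and 36.8 CPM at 10 months, against 80.3, 77.5 and 62.6 CPM at E19.5. None of them overlapped between ages, and the log2 fold changes were -1.80 ± 0.12 (adjusted p = 2.17e-06), -2.33 ± 0.17 (adjusted p = 6.81e-06) and -1.07 ± 0.10 (adjusted p = 1.41e-05). Fzd2 and Fzd10, Wnt receptors, had log2 fold changes of -1.76 and -3.86.

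Growth factors of the mesenchyme and their receptors changed in both directions. Of 19 genes of the FGF pathway 12 fell and 3 rose. Fgf10, the mesenchymal ligand that drives bud outgrowth, had 26.3, 26.3 and 31.6 CPM at 10 months, against 78.7, 72.5 and 71.7 CPM at E19.5. Fgfr2, its epithelial receptor, had 154, 188 and 159 CPM at 10 months, against 329, 313 and 343 CPM at E19.5. Spry4, a feedback inhibitor, had 19.8, 21.5 and 26.7 CPM at 10 months, against 66.2, 58.4 and 70.2 CPM at E19.5. All 3 were lower in every adult lung, with log2 fold changes of -1.41 ± 0.09 (adjusted p = 1.43e-06), -0.97 ± 0.09 (adjusted p = 1.05e-05) and -1.52 ± 0.12 (adjusted p = 6.78e-06). Fgf1, another ligand, was higher, with 323, 339 and 369 CPM at 10 months, against 136, 136 and 116 CPM at E19.5 and a log2 fold change of 1.41 ± 0.09 (adjusted p = 1.06e-06). TGF-beta and BMP genes rose in 10 of 27 and fell in 6, beside 31.5% and 31.2% of all tested genes. Bmp6, a ligand, had 204, 193 and 177 CPM at 10 months, against 22.4, 25.5 and 25.3 CPM at E19.5. Bmpr2, the receptor mutated in heritable pulmonary hypertension, had 629, 710.3 and 796 CPM at 10 months, against 205, 202 and 198 CPM at E19.5. Both lay above every fetal value, with log2 fold changes of 2.97 ± 0.08 (adjusted p = 3.44e-08) and 1.82 ± 0.09 (adjusted p = 3.39e-07). Notch genes rose in 8 of 15 and fell in 3, and between 5 and 7 rose when a library was left out. Dll1 and Dll4, ligands, had log2 fold changes of 1.73 and 0.56, against -0.94 for the ligand Jag2.

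Guidance molecules first known from axons, which also pattern vessels and airways, fell in 13 of 26 and rose in 9. Of all tested genes 31.2% fell and 31.5% rose. Sema3c, a secreted semaphorin, had 583, 567 and 642 CPM at 10 months, against 53.4, 54.4 and 54 CPM at E19.5. Sema3g, a semaphorin of arterial endothelium, had 269, 256 and 247 CPM at 10 months, against 56.5, 46.1 and 49.2 CPM at E19.5. Slit2, a ligand of Robo receptors, had 57.9, 57.4 and 58 CPM at 10 months, against 246, 229 and 196 CPM at E19.5. The semaphorins were higher and Slit2 lower in every adult lung than in any fetal lung, with log2 fold changes of 3.47 ± 0.07 (adjusted p = 8.23e-09), 2.35 ± 0.09 (adjusted p = 8.74e-08) and -1.95 ± 0.09 (adjusted p = 1.91e-07).

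Transcription factors of the lung and foregut were mostly lower: 21 of 30 fell, 6 rose and 3 did not pass, with a median of -0.69. Tcf21, a factor of distal fibroblasts, had 133, 101 and 119.5 CPM at 10 months, against 462, 415 and 417 CPM at E19.5. Foxp2, a factor of distal epithelium, had 8.96, 8.43 and 9.86 CPM at 10 months, against 40.6, 41.6 and 31.4 CPM at E19.5. Sox9, a factor of the branching tips and of cartilage named after its values were seen, had 0.684, 0.274 and 1.27 CPM at 10 months, against 29.1, 16.9 and 29.2 CPM at E19.5. The groups were apart in all 3, with log2 fold changes of -1.87 ± 0.10 (adjusted p = 6.5e-07), -2.06 ± 0.12 (adjusted p = 1.08e-06) and -5.08 ± 0.50 (adjusted p = 0.000386). Without WT 10 months 3 that of Sox9 was -5.69 ± 0.49 (adjusted p = 0.000426). Nkx2-1, the lineage factor of lung epithelium, also named after its values were seen, was lower at 163, 190.4 and 177 CPM at 10 months, against 358, 305 and 356 CPM at E19.5, a log2 fold change of -0.94 ± 0.09 (adjusted p = 1.37e-05). Klf5, Elf5 and Tbx4 had log2 fold changes of -1.33, -1.34 and -0.95. Hox genes, which hold the position of the lung along the body, stayed expressed. Of 16 tested 9 fell and 3 rose, or between 1 and 3 rose when a library was left out. Hoxb3 had 11.4, 10.2 and 9.82 CPM at 10 months, against 24.5, 27.5 and 26.5 CPM at E19.5, a log2 fold change of -1.32 ± 0.10 (adjusted p = 3.25e-06).

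Genes of type 1 cells, the flat cells of gas exchange, were mostly higher. Of 18 type 1 genes 14 rose, 0 fell and 4 did not pass, with a median of 0.74. Hopx, a homeodomain protein of type 1 cells, had 889, 897 and 894 CPM at 10 months, against 373, 411 and 409 CPM at E19.5. Aqp5, their water channel, had 321, 376 and 342 CPM at 10 months, against 138, 113 and 130 CPM at E19.5. Pxdc1, a marker of unsettled function, had 198, 196 and 217 CPM at 10 months, against 16.3, 17.3 and 18.5 CPM at E19.5. None overlapped between ages, and the log2 fold changes were 1.17 ± 0.07 (adjusted p = 8.05e-07), 1.45 ± 0.09 (adjusted p = 1.55e-06) and 3.55 ± 0.08 (adjusted p = 1.06e-08). Sec14l3, a lipid carrier, had 2661, 2754 and 3056 CPM at 10 months, against 787, 693 and 682 CPM at E19.5, a log2 fold change of 1.97 ± 0.09 (adjusted p = 2.17e-07).

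Of 18 genes of type 2 cells, which make surfactant, 3 rose, 10 fell and 5 did not pass, with a median of -0.30. Sftpa1, a surfactant protein that also binds microbes, had 3590, 4192 and 3914 CPM at 10 months, against 1917, 1437 and 1597 CPM at E19.5, a log2 fold change of 1.24 ± 0.11 (adjusted p = 1.35e-05). Sftpb, needed to spread surfactant, had 3578, 4203 and 3247 CPM at 10 months, against 3329, 2526 and 3087 CPM at E19.5. Its log2 fold change of 0.30 ± 0.13 did not pass (adjusted p = 0.0619), although it did without WT E19.5 1, at 0.40 (adjusted p = 0.0305), and without WT 10 months 3, at 0.39 (adjusted p = 0.0377). Neither did that of Sftpc pass, -0.02 ± 0.13 with all libraries (adjusted p = 0.886) and above 0 without WT E19.5 1 or WT 10 months 3. Ctsh, a protease that processes surfactant protein B, had 282, 338 and 331 CPM at 10 months, against 1218, 1091 and 1005 CPM at E19.5. Lpcat1, which makes surfactant phosphatidylcholine, had 205, 248 and 208 CPM at 10 months, against 417, 363 and 413 CPM at E19.5. Both were lower in every adult lung, with log2 fold changes of -1.80 ± 0.10 (adjusted p = 6.25e-07) and -0.85 ± 0.09 (adjusted p = 3.63e-05). The type 1 and type 2 lists therefore differed in their counts, 14 of 18 against 3 of 18 higher, beside 31.5% of all genes. The difference between the lists was not tested.

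Transport of airway fluid changed gene by gene, with 6 of 16 higher and 7 lower, beside 31.5% and 31.2% of all tested genes. Scnn1b and Scnn1g encode subunits of the sodium channel that absorbs fluid. Scnn1b had 164, 169.7 and 173 CPM at 10 months, against 47.7, 47.3 and 48.2 CPM at E19.5. Scnn1g had 226, 253 and 270.1 CPM at 10 months, against 117, 123 and 117 CPM at E19.5. Cftr, the chloride channel that secretes it, had 11.2, 15.1 and 17 CPM at 10 months, against 49.7, 45.3 and 40.8 CPM at E19.5. Slc12a2, the transporter that loads chloride into the cell, had 154, 163 and 176 CPM at 10 months, against 302, 276 and 278 CPM at E19.5. The absorbing subunits were higher and the secreting genes lower in every adult lung. Their log2 fold changes were 1.82 ± 0.06 (adjusted p = 4.83e-08), 1.07 ± 0.08 (adjusted p = 3.22e-06), -1.65 ± 0.15 (adjusted p = 2.88e-05) and -0.79 ± 0.07 (adjusted p = 1.35e-05).

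Club cell genes did not move as a group, although Scgb1a1 was far higher at 10 months. Scgb1a1 (chromosome 19, 9083642 to 9087956) had 45128, 46753 and 52489 CPM at 10 months, against 1466, 1110.4 and 1380.1 CPM at E19.5, the most abundant RNA named here, with a log2 fold change of 5.19 ± 0.14 (adjusted p = 3.44e-08). Cbr2, a carbonyl reductase, had 3853, 3582 and 3487 CPM at 10 months, against 1027, 861 and 1102 CPM at E19.5. Cyp2f2, a cytochrome P450 that activates naphthalene, had 3351, 3187 and 3543 CPM at 10 months, against 274, 286 and 336 CPM at E19.5. They were higher in all adult lungs, with log2 fold changes of 1.87 ± 0.10 (adjusted p = 6.17e-07) and 3.49 ± 0.10 (adjusted p = 3.44e-08). Over the whole list of 17 club and secretory genes 7 rose, 1 fell and 9 did not pass. Of 22 ciliated cell genes 20 rose and 2 fell. Tppp3, a tubulin-binding protein of cilia, had 485, 462 and 432 CPM at 10 months, against 114, 109.5 and 129 CPM at E19.5. Dnah5, a dynein arm heavy chain, had 79.5, 80.1 and 80.6 CPM at 10 months, against 28.2, 25.2 and 28.6 CPM at E19.5, with no overlap and log2 fold changes of 1.97 ± 0.08 (adjusted p = 1.47e-07) and 1.55 ± 0.07 (adjusted p = 2.21e-07). The members that fell were Mcidas and Ccno, which start the making of many cilia in new multiciliated cells, and they are named after their values were seen. Mcidas had 0.513, 0.719 and 0.4 CPM at 10 months, against 2.21, 2.94 and 2.73 CPM at E19.5. Ccno had 2.77, 2.98 and 2.18 CPM at 10 months, against 9.44, 12.2 and 9.93 CPM at E19.5, with log2 fold changes of -2.26 ± 0.29 (adjusted p = 0.000117) and -1.99 ± 0.17 (adjusted p = 8.89e-06).

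Endothelial genes rose in 16 of 25 and fell in 4, with a median of 0.62. Plvap, which forms the diaphragms across openings of endothelium, had 542, 613 and 577 CPM at 10 months, against 121, 128 and 110 CPM at E19.5. Car4, the carbonic anhydrase of alveolar capillary cells that take part in gas exchange, had 167, 138 and 163 CPM at 10 months, against 40.2, 41.2 and 30.9 CPM at E19.5. Tek, the angiopoietin receptor, had 409.7, 435 and 446 CPM at 10 months, against 135, 123 and 119.8 CPM at E19.5. Adult values were above fetal ones throughout, with log2 fold changes of 2.27 ± 0.08 (adjusted p = 7.18e-08), 2.06 ± 0.12 (adjusted p = 2.56e-06) and 1.77 ± 0.07 (adjusted p = 1.31e-07). Among lymphatic markers Ccl21a, a chemokine that draws T cells and dendritic cells, rose and Prox1, the lymphatic fate factor, fell, with log2 fold changes of 1.64 ± 0.14 (adjusted p = 2.91e-05) and -1.56 ± 0.23 (adjusted p = 0.000301). Of 20 fibroblast genes 6 rose and 10 fell, with a median of -0.31. Tcf21 and Fgf10, given above, were among those that fell. Inmt, a methyltransferase on that list, was among the largest gains in FPKM over all genes. So was Gsn, the actin-severing protein gelsolin, which is not on the list. Inmt had 1796, 1446 and 1292 CPM at 10 months, against 273, 146 and 333 CPM at E19.5. Gsn had 5365, 4757 and 4529 CPM at 10 months, against 1438, 1154 and 1465 CPM at E19.5, with log2 fold changes of 2.59 ± 0.36 (adjusted p = 0.00222) and 1.85 ± 0.11 (adjusted p = 1.13e-06). The smooth muscle and pericyte list held 2 genes higher and 7 lower of 17, and 6 were higher without WT E19.5 3. Cspg4, a pericyte proteoglycan, had 19, 18.2 and 16.9 CPM at 10 months, against 66, 63.2 and 77 CPM at E19.5. Higd1b, a gene of lung pericytes, had 11.9, 9.9 and 8.87 CPM at 10 months, against 35.2, 34 and 27.9 CPM at E19.5, with log2 fold changes of -1.93 ± 0.09 (adjusted p = 2.87e-07) and -1.66 ± 0.13 (adjusted p = 5.51e-06).

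Immune genes rose broadly. All 12 genes of MHC class II presentation, which shows peptides to helper T cells, rose, with a median log2 fold change of 4.05. H2-Aa, a class II chain, had 494, 596 and 382 CPM at 10 months, against 8.71, 6.15 and 7.08 CPM at E19.5. Cd74, the chaperone of class II, had 1435, 1794 and 1204 CPM at 10 months, against 71.7, 54 and 48.8 CPM at E19.5. Ciita, the coactivator that switches the class II genes on, was named after its values were seen and had 35.9, 57.3 and 28.7 CPM at 10 months, against 3.37, 2.19 and 1.99 CPM at E19.5. The adult values lay far above the fetal ones, with log2 fold changes of 6.07 ± 0.23 (adjusted p = 2.17e-06), 4.67 ± 0.22 (adjusted p = 5.12e-06) and 4.00 ± 0.37 (adjusted p = 0.000242). WT 10 months 3 was the lowest adult library for each of them. Promoters of class II genes carry a shared module that includes a CCAAT box, called Y, and 3 are shown for that reason, chosen after their values and motifs were seen, with capitals as above.
H2-Aa (chr17:34287824-34287973, minus strand): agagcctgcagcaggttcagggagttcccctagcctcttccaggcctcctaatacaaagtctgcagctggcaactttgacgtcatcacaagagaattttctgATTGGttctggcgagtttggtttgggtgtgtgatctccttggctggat
H2-Eb1 (chr17:34305717-34305866, plus strand): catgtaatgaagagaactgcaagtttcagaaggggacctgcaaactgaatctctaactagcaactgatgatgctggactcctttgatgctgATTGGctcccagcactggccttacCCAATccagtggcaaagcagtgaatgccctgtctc
H2-DMb1 (chr17:34153041-34153190, plus strand): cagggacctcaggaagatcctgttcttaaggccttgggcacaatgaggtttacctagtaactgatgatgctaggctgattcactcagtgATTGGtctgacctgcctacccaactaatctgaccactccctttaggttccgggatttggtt
CCAAT on either strand was present in 7 of the 9 class II genes with a promoter sequence (77.8%), beside 27.7% of all promoters and 30.6% of those of tested genes, and TTTGAA on either strand in 0 of 9. The same letters thus occur in mitosis genes, which fell, and in class II genes, which rose. H2-Eb1 and H2-DMb1 had log2 fold changes of 5.70 and 3.65.

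MHC class I genes rose in 13 of 14, with a median of 1.97. B2m, the shared light chain, had 1219, 1531 and 1182 CPM at 10 months, against 227, 261 and 347 CPM at E19.5. H2-D1, a heavy chain whose reads may be split with its close relatives, had 1511, 1700.4 and 1249 CPM at 10 months, against 261, 235 and 375 CPM at E19.5. Both were apart between ages, with log2 fold changes of 2.24 ± 0.18 (adjusted p = 4.14e-05) and 2.36 ± 0.21 (adjusted p = 0.000103). All 15 B and plasma cell genes rose, with a median of 4.30. Fcer2a, the low-affinity IgE receptor of B cells, had 15.6, 19.9 and 13.6 CPM at 10 months, against 0.281, 0.0755 and 0.124 CPM at E19.5. Cd37, a B cell tetraspanin, had 25.8, 23.6 and 19.5 CPM at 10 months, against 5.05, 3.4 and 4.3 CPM at E19.5, with log2 fold changes of 6.61 ± 0.32 (adjusted p = 4.63e-07) and 2.43 ± 0.16 (adjusted p = 2.06e-06). Without WT E19.5 1 that of Fcer2a was 7.32 (adjusted p = 5.77e-07). Of 22 T and NK cell genes 21 rose and 1 did not pass, with a median of 3.69. Cd8a, the co-receptor of cytotoxic T cells, had 5.03, 5.96 and 4.95 CPM at 10 months, against 0.105, 0.113 and 0.166 CPM at E19.5. Lck, the kinase bound to it, had 13, 11.5 and 9.89 CPM at 10 months, against 1.86, 1.74 and 2.15 CPM at E19.5. Both were higher in every adult lung, with log2 fold changes of 5.34 ± 0.28 (adjusted p = 4.5e-07) and 2.58 ± 0.16 (adjusted p = 1.36e-06). The member that did not pass is Gzmb, granzyme B, with 2.56, 1.99 and 2.44 CPM at 10 months, against 2.46, 3.28 and 2.94 CPM at E19.5 and a log2 fold change of -0.31 ± 0.21 (adjusted p = 0.228).

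Macrophage and dendritic cell genes rose as well. Of 18 alveolar macrophage genes 17 rose and none fell, with a median of 2.23. Siglecf, a sialic acid receptor of resident macrophages, had 16.6, 21.9 and 15.3 CPM at 10 months, against 0.948, 0.679 and 0.869 CPM at E19.5. Itgax, the integrin CD11c, had 48.7, 68.3 and 47.5 CPM at 10 months, against 2.63, 2 and 2.4 CPM at E19.5. Atp6v0d2, a proton pump subunit, had 35.9, 48.1 and 40.1 CPM at 10 months, against 1.86, 1.85 and 1.99 CPM at E19.5. WT 10 months 2 was the highest in all 3, and no fetal lung reached the adult range, with log2 fold changes of 4.42 ± 0.20 (adjusted p = 1.91e-07), 4.54 ± 0.19 (adjusted p = 4.15e-07) and 4.44 ± 0.14 (adjusted p = 4.23e-08). Dendritic cell genes rose in 11 of 12, with Ccr7, the receptor that guides them to lymph nodes, at 17.6, 15 and 14.6 CPM at 10 months, against 0.351, 0.189 and 0.704 CPM at E19.5, a log2 fold change of 5.26 ± 0.31 (adjusted p = 2.54e-06). Interstitial macrophage and monocyte genes moved less, 9 of 18 higher and 3 lower with a median of 0.57, and Csf1r, the growth factor receptor of both kinds, had 180.4, 166 and 152 CPM at 10 months, against 61.2, 53.4 and 77.8 CPM at E19.5, a log2 fold change of 1.37 ± 0.14 (adjusted p = 7.1e-05).

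Chemokines rose in 13 of 24 and fell in 1. Cx3cl1, a membrane-bound chemokine of endothelium and epithelium, had 68.9, 73.1 and 72.7 CPM at 10 months, against 13.4, 13.8 and 12.8 CPM at E19.5. Cxcl14 had 136, 119 and 126 CPM at 10 months, against 16, 13.7 and 11.3 CPM at E19.5. Ccl22, made by dendritic cells, had 10.6, 11.7 and 9.86 CPM at 10 months, against 0.105, 0.0755 and 0.29 CPM at E19.5. They did not overlap between ages, and the log2 fold changes were 2.42 ± 0.07 (adjusted p = 3.44e-08), 3.21 ± 0.12 (adjusted p = 1.42e-07) and 6.10 ± 0.32 (adjusted p = 4.36e-07), or 6.82 ± 0.27 (adjusted p = 1.17e-07) for Ccl22 without WT E19.5 3. Complement genes rose in 10 of 18, fell in 1 and did not pass in 7. C7, a part of the membrane attack complex, had 332, 311 and 337 CPM at 10 months, against 37, 33.4 and 25.8 CPM at E19.5, with no overlap and a log2 fold change of 3.35 ± 0.13 (adjusted p = 2.07e-07). Interferon response genes did not move as a group: 5 rose, 7 fell and 13 of 25 did not pass, and between 3 and 9 rose and between 4 and 8 fell when a library was left out. Gbp2, a GTPase that gamma interferon induces, had 82.6, 129 and 81.5 CPM at 10 months, against 15.8, 20.9 and 27 CPM at E19.5. Rsad2, the antiviral enzyme viperin, had 6.91, 7.77 and 9.31 CPM at 10 months, against 33.7, 30.0 and 40.9 CPM at E19.5. The first was higher and the second lower in every adult lung, with log2 fold changes of 2.21 ± 0.29 (adjusted p = 0.00138) and -2.12 ± 0.15 (adjusted p = 3.09e-06).

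Red cell genes fell in 22 of 24, none rose, and the median was -1.74. Hba-a1 had 2464, 2061 and 2056 CPM at 10 months, against 7736, 4806 and 6526 CPM at E19.5, a log2 fold change of -1.53 ± 0.17 (adjusted p = 0.000125) that did not pass in a fit of all 23 libraries (adjusted p = 0.419). Klf1, the erythroid transcription factor, had 0.171, 0.171 and 0.109 CPM at 10 months, against 2.49, 1.51 and 2.07 CPM at E19.5. Ermap, an erythroid membrane protein, had 0.513, 0.548 and 0.8 CPM at 10 months, against 12.8, 5.81 and 7.53 CPM at E19.5, with no overlap in these 3 genes and log2 fold changes of -3.71 ± 0.37 (adjusted p = 2.14e-05) and -3.81 ± 0.35 (adjusted p = 2.45e-05). WT E19.5 1 was the highest fetal library for each of them and WT E19.5 2 the lowest. Neutrophil genes split. Ngp, a granule protein made by immature neutrophils, had 0.171, 0.0343 and 0.182 CPM at 10 months, against 8.18, 4 and 7.28 CPM at E19.5, a log2 fold change of -5.61 ± 0.47 (adjusted p = 1.09e-05). Csf3r, the receptor of the neutrophil growth factor, had 27.8, 36.8 and 77.9 CPM at 10 months, against 14.4, 10.5 and 10.7 CPM at E19.5. Cxcr2, a chemokine receptor of circulating neutrophils, had 9.33, 11.9 and 33.6 CPM at 10 months, against 4.28, 3.51 and 3.89 CPM at E19.5. Their adult level was highest in WT 10 months 3, and the log2 fold changes of 2.00 ± 0.47 (adjusted p = 0.0184) and 2.23 ± 0.59 (adjusted p = 0.0253) became 1.45 ± 0.18 (adjusted p = 0.000555) and 1.45 ± 0.17 (adjusted p = 0.000288) without it. Without any single fetal library their calls were lost, at an adjusted p between 0.0546 and 0.0776 for Csf3r and between 0.0893 and 0.0978 for Cxcr2. Platelet genes rose in 7 of 12, again highest in WT 10 months 3: Ppbp, a chemokine stored in platelets, had 15.8, 13.4 and 37.8 CPM at 10 months, against 2.39, 1.4 and 4.8 CPM at E19.5, a log2 fold change of 2.98 ± 0.68 (adjusted p = 0.0169), which became 2.36 ± 0.49 (adjusted p = 0.0118) without that library. Its adjusted p was 0.0751 without WT E19.5 1 and 0.0527 without WT E19.5 2. Between 3 and 8 platelet genes and between 1 and 6 neutrophil genes rose when a library was left out. Of 8 mast cell and basophil genes 3 fell and 2 rose, beside 31.2% and 31.5% of all tested genes. The mast cell protease gene Tpsb2 had 0.581, 0.171 and 0.327 CPM at 10 months, against 5.33, 4.61 and 10.2 CPM at E19.5. Cma1, another, had 1.13, 0.856 and 0.836 CPM at 10 months, against 3.09, 3.36 and 5.88 CPM at E19.5, with log2 fold changes of -4.20 ± 0.48 (adjusted p = 0.000124) and -2.12 ± 0.31 (adjusted p = 0.000239). Kit, the receptor of stem cell factor, which other lung cells also make, had 168, 187 and 196 CPM at 10 months, against 101, 90.4 and 91.9 CPM at E19.5, a log2 fold change of 0.96 ± 0.08 (adjusted p = 6.85e-06).

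Enzymes that handle foreign chemicals rose in 24 of 29 and fell in none, with a median of 1.54, and 12 of them rose at least 4-fold. Cyp2b10, a cytochrome P450 of club cells and liver, had 387, 395 and 408 CPM at 10 months, against 4.49, 3.85 and 4.22 CPM at E19.5. Gsta3, a glutathione transferase, had 246, 231 and 227 CPM at 10 months, against 9.83, 7.96 and 7.99 CPM at E19.5. Ephx1, the microsomal epoxide hydrolase, had 185, 187 and 189.5 CPM at 10 months, against 45.3, 42 and 46.6 CPM at E19.5. All were even within each group and far apart between ages, with log2 fold changes of 6.56 ± 0.09 (adjusted p = 4.14e-10), 4.77 ± 0.10 (adjusted p = 7.79e-09) and 2.07 ± 0.06 (adjusted p = 4.23e-08). Antioxidant enzymes rose in 11 of 20 and fell in 3. Sod3, the extracellular superoxide dismutase, had 357, 375 and 341 CPM at 10 months, against 14.1, 12.7 and 21.7 CPM at E19.5. Prdx6, a peroxidase that also remodels surfactant lipid, had 1094, 1033 and 1278 CPM at 10 months, against 413, 347 and 352 CPM at E19.5, with log2 fold changes of 4.47 ± 0.22 (adjusted p = 6.41e-06) and 1.61 ± 0.10 (adjusted p = 1.52e-06). Gpx7, a peroxidase of the endoplasmic reticulum that serves protein folding, fell, with 13.7, 10.9 and 13.2 CPM at 10 months, against 27.8, 33.4 and 27.6 CPM at E19.5 and a log2 fold change of -1.23 ± 0.12 (adjusted p = 1.64e-05).

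Retinoid genes rose in 9 of 22 and fell in 6, beside 31.5% and 31.2% of all tested genes. Aldh1a1, which makes retinoic acid, had 1639, 1492 and 1732 CPM at 10 months, against 109, 101 and 89.5 CPM at E19.5. Lrat, which stores retinol as esters, had 119, 119 and 92.1 CPM at 10 months, against 2.07, 2.04 and 3.1 CPM at E19.5. Adh1, an alcohol dehydrogenase that can oxidise retinol, had 131, 122 and 116 CPM at 10 months, against 616, 619 and 463 CPM at E19.5. The first 2 were higher and Adh1 lower in every adult lung, with log2 fold changes of 4.02 ± 0.10 (adjusted p = 2.61e-08), 5.52 ± 0.18 (adjusted p = 2.29e-07) and -2.20 ± 0.12 (adjusted p = 9.42e-07). Rarres1 itself, the gene deleted in the KO mice of the series, was low at both ages and its log2 fold change of 0.18 ± 0.30 did not pass (adjusted p = 0.616).

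Glycolysis genes fell in 13 of 19 and rose in 2, with a median of -0.88. Slc2a1, the glucose transporter of fetal and hypoxic tissue, had 38.9, 33.8 and 39 CPM at 10 months, against 102, 85.3 and 105 CPM at E19.5. Eno1, an enolase, had 129, 135 and 126 CPM at 10 months, against 355, 327 and 411 CPM at E19.5, with log2 fold changes of -1.39 ± 0.10 (adjusted p = 2.42e-06) and -1.49 ± 0.09 (adjusted p = 1.02e-06). Lipid synthesis moved in both directions, as did all tested genes, of which 31.5% rose and 31.2% fell. Of 22 cholesterol genes 11 rose and 7 fell, or 4 to 7 fell when a library was left out. Sc5d, a late enzyme of the pathway, had 40.1, 39.8 and 40.7 CPM at 10 months, against 19.8, 20.1 and 18.9 CPM at E19.5. Its log2 fold change was 1.04 ± 0.07 (adjusted p = 1.97e-06), and the groups did not overlap. Of 18 fatty acid and storage genes 7 rose and 4 fell. Fads1, a desaturase, had 177, 173 and 173 CPM at 10 months, against 98.7, 95.4 and 88 CPM at E19.5. Gpam, which starts glycerolipid synthesis, had 99.1, 109.9 and 102 CPM at 10 months, against 233, 196 and 247 CPM at E19.5, with log2 fold changes of 0.89 ± 0.06 (adjusted p = 3.14e-06) and -1.12 ± 0.09 (adjusted p = 6.85e-06).

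Stress and daily rhythm genes depend on how and when tissue is taken, which the labels do not give. Heat shock chaperones rose in 6 of 12 and fell in none. Hsp90aa1 had 679, 900 and 832 CPM at 10 months, against 296, 294 and 291 CPM at E19.5, a log2 fold change of 1.45 ± 0.10 (adjusted p = 2.4e-06). Immediate early genes rose in 8 of 15, with Nr4a3, a nuclear receptor, at 9.3, 6.82 and 12.5 CPM at 10 months, against 0.842, 0.717 and 1.61 CPM at E19.5, a log2 fold change of 3.18 ± 0.34 (adjusted p = 8.54e-05). Among 17 clock genes the counts were 6 higher and 6 lower, with 5 not past the threshold. Of all tested genes 31.5% were higher and 31.2% lower. Per2, a repressor of the clock, had 21.1, 19.2 and 23.1 CPM at 10 months, against 74.9, 67.8 and 85.4 CPM at E19.5. Nr1d2, a nuclear receptor that represses the activator gene Arntl, had 62.6, 67.4 and 76.5 CPM at 10 months, against 30.6, 27.7 and 29.3 CPM at E19.5. Per2 was lower and Nr1d2 higher in all adult lungs, with log2 fold changes of -1.85 ± 0.10 (adjusted p = 6.95e-07) and 1.24 ± 0.09 (adjusted p = 2.72e-06). The age effect and the hour of collection cannot be told apart for these genes.

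The same change was measured in the KO lungs of the series, 3 at 10 months and 3 at E19.5, which share no library with the WT lungs. There 9455 of 15627 genes were called (60.5%), 4858 higher and 4597 lower. Of the 9729 WT calls that were tested in KO, 98.7% had the same sign, and 8170 were called in the same direction, 84.0% of those WT calls and 86.4% of the KO calls. The mitosis gene Mki67 changed by -2.94 ± 0.18 in KO and -2.70 ± 0.09 in WT, elastin by -6.49 ± 0.20 and -4.73 ± 0.30, and Scgb1a1 by 5.34 ± 0.20 and 5.19 ± 0.14, all log2. The fall of elastin was thus smaller in WT, where the value includes WT 10 months 3. Elastin there was 5.4% of the WT E19.5 mean, against 2.9% and 3.1% in WT 10 months 1 and 2. A direct test of the difference between the KO change and the WT change was called for 25 of 15994 genes (0.156%), and 7 of the 17 clock genes tested were among them. Elastin was not among the genes called. On simulated counts this test recovered 20.9% of 1.5-fold and 64.2% of 2-fold differences, so a gene that was not called may still differ. Per3, a clock repressor, had 83.4, 86.7 and 66.7 CPM in KO lungs at 10 months, against 51.7, 56.8 and 54 CPM in KO lungs at E19.5, and 23.1, 24.4 and 23.8 CPM in WT lungs at 10 months, against 55.7, 44.4 and 53.9 CPM in WT lungs at E19.5. The KO change minus the WT change was 1.66 ± 0.15 (adjusted p = 0.000136) on the log2 scale. Tspan4, a tetraspanin, had 117, 122 and 91.9 CPM in KO lungs at 10 months, against 50.8, 50.4 and 55.8 CPM in KO lungs at E19.5, and 36.6, 40.0 and 35.3 CPM in WT lungs at 10 months, against 50.3, 51.5 and 52.7 CPM in WT lungs at E19.5, a difference of 1.55 ± 0.14 (adjusted p = 0.000136). In both genes the adult KO lungs were the highest of the 4 groups and the adult WT lungs the lowest. Collection hours are not given, so a difference in hour and one in genotype cannot be told apart for the clock genes.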

How the data were processed

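Total RNA of lung was sequenced. The deposited table holds expected counts per gene and a second deposited table holds FPKM. Both were made by the authors with Trimmomatic 0.36, STAR 2.5.2b and RSEM 1.3.0 on build mm10, per the submitters' processing notes, and the annotation and strandedness are not given in the sources used here, so overlapping genes cannot be told apart. Groups came from the labels.

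Expected counts were rounded and fitted on the 6 WT libraries with edgeR 4.0.16 in R 4.3.3 (TMM, filterByExpr, robust quasi-likelihood F test, Benjamini-Hochberg adjustment over 15619 genes). Calls have an adjusted p under 0.05. SE is the absolute log2 fold change over the square root of F, and fold changes carry a prior count of 0.125. The KO minus WT difference was an interaction in a fit of 12 libraries. DESeq2 1.42.0, limma 3.58.1 on log2(FPKM + 0.1) and log2(FPKM + 1), other scalings and filters, a replicate block and leaving out libraries were alternatives. Intervals of pooled reads are exact, at 95%. On simulated counts, 47.8%, 76.1% and 95.5% of genes changed 1.5-fold, 2-fold and 4-fold were recovered, and 6.41% of 156 calls were unchanged genes. Only 67, 67 and 66 of 15619 genes were changed there, whereas 62.7% were called in the data. These rates therefore do not carry over to the data. Libraries within a group differed by more than counting error. Gene coordinates are RefSeq on GRCm38.p6. Python 3.11.15 drew the figures with matplotlib 3.10.9.

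The comparison, its members and the 63 gene lists were chosen with earlier results of these data known, and no list was tested as a set. Named are up to 12 genes by fitted change, 10 by FPKM and 8 switched genes in each direction, 5 by adjusted p in each list, 8 by the KO minus WT difference, and Rarres1, with members that did not pass where a role needs them. Genes named by fitted change were limited to those without overlap between the ages whose larger group mean reached 10 CPM. Cdk1, Cdc20, Cdkn2a, Ciita, H2-Eb1, H2-DMb1, Col1a1, Col4a3, Col8a1, Dcn, Sgce, Mcidas, Ccno, Nkx2-1 and Sox9 lie outside this rule and were named after their values were seen. Many genes picked by this rule are left out of the text. They include all picks of the mesothelial, neuroendocrine, hepatocyte, and neuron and glia lists.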

Additional observations from a re-analysis of the deposited data

Results flagged for a closer look

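A test of the difference between the KO change and the WT change picked out the following genes among those named, each value being the KO change minus the WT change on the log2 scale, with its SE and the adjusted p of edgeR's quasi-likelihood test. Clock genes made up most of these named genes, and a clock list was among the lists that genes were named from. Of all 25 genes whose difference was called, 7 were on the clock list. Dbp, an output factor of the clock, differed by 3.53 ± 0.20 (adjusted p = 3.44e-06), Per3 by 1.66 ± 0.15 (adjusted p = 0.000136), Hlf, a relative of Dbp, by 1.92 ± 0.18 (adjusted p = 0.000208), and Nr1d2 by 1.19 ± 0.16 (adjusted p = 0.00719). The activators Npas2 and Arntl differed in the other direction, by -2.93 ± 0.18 (adjusted p = 3.44e-06) and -2.77 ± 0.18 (adjusted p = 8.4e-06). In WT alone the log2 fold change was 0.77 ± 0.11 for Dbp, -1.12 ± 0.09 for Per3, 0.04 ± 0.13 for Hlf, 1.24 ± 0.09 for Nr1d2, -0.48 ± 0.09 for Npas2 and 0.46 ± 0.08 for Arntl. Outside the clock, Tspan4 differed by 1.55 ± 0.14 (adjusted p = 0.000136), Hsph1, a heat shock chaperone, by -1.51 ± 0.18 (adjusted p = 0.00382), Dtx4, a ubiquitin ligase related to Notch regulators, by -1.13 ± 0.12 (adjusted p = 0.00143), and 5430416O09Rik, an unnamed transcript, by -1.23 ± 0.15 (adjusted p = 0.0035). With 3 libraries in a group, no gene or list was examined for single outlying libraries by a test. The hour of collection is unlabelled, and its part in these differences was not tested.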

How the results depend on the processing

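The counts of genes called higher and lower stayed within 1.5 times their values under every alternative: 4839 and 4847 with DESeq2 (size factors), 4981 and 4807 with upper-quartile scaling, 4428 and 5338 with total counts only, 5051 and 5000 without a filter on low counts, and 4489 to 4822 and 4352 to 4671 without a single library. The counts of 4-fold changes lay between 726 and 812 higher and between 724 and 841 lower without a single library, and on log2(FPKM + 1), which shrinks low genes by construction, limma gave 225 higher and 184 lower. With both WT E19.5 3 and WT 10 months 3 left out, chosen after seeing the data, 796 genes were at least 4-fold higher and 708 at least 4-fold lower, 670 and 647 of them shared with the fit of all 6 libraries. Total counts only moved the split of calls from higher to lower. Deviations of same-numbered WT libraries from their group means had correlations of -0.27, -0.04 and -0.05. Those of differently numbered libraries lay between -0.14 and 0.23. With 3 libraries in a group, deviations are tied to each other through the mean, so these values cannot show whether the numbers pair libraries. With the replicate block 4478 genes were higher and 4419 lower, and the calls of Csf3r (1.87 (adjusted p = 0.0661)), Dcn (1.18 (adjusted p = 0.0657)) and Dlk1 (-8.46 (adjusted p = 0.0752)) were lost. In a fit of all 23 libraries the calls of Hba-a1, Hba-a2, Cdkn1a, Col4a3, Dll4, Arntl, Npas2 and 5430416O09Rik were lost, at an adjusted p between 0.0605 and 0.419. Without some libraries the oncofetal and laminin genes called higher and the complement genes called lower numbered 0, the chemokine and club cell genes called lower reached 2, and 1 hedgehog gene was higher and 1 xenobiotic enzyme lower. The difference between the KO and WT changes was called for 107 genes with DESeq2, 16 with the replicate block, 6 in a fit of all 23 libraries, and 19 to 31 without a single library.

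Of 3878 values of 216 named genes under 18 alternatives, 3797 kept their direction and call, 61 lost the call, 6 gained it and 14 changed sign, none of them in a gene that had been called. Cdkn2a was not among these genes. The sign changes were in Xist, Sftpc, Rarres1, Dtx4 and Hlf. Without 1 or both of the libraries concerned, the log2 fold change ranged from -9.84 to 2.87 for Xist (2.87 without WT E19.5 3, 0.58 without both replicates 3), from -0.13 to 0.087 for Sftpc (0.079 without WT 10 months 3, 0.063 without both replicates 3), from -0.027 to 0.48 for Rarres1, from -0.043 to 0.015 for Dtx4 (0.010 without both replicates 3) and from -0.082 to 0.23 for Hlf (-0.024 without WT E19.5 2). For Hlf it was also -0.020 with total counts only, -0.022 on log2(FPKM + 0.1) with or without a filter and -0.017 on log2(FPKM + 1). Genes under 3 pooled reads at an age have ratios set by counting error, and the cause of the lost calls was not tested.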
